A study of Mus musculus with 15 samples.

Results

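Gene expression of 4T1 cells treated with blackberry extract (BLA) was set against that of 4T1 cells treated with blueberry extract (BLU). The members are the 6 labelled samples of these conditions, 3 BLA and 3 BLU, of 15 samples in the series. Each condition was sequenced as 1 library, and its 3 samples are columns of counts from subsets of that library's reads, so the comparison is between 2 libraries and has no replicate check and no p-value. The other 9 samples are 3 columns each of untreated cells and of cells treated with the gold nanoparticles made with each fruit, BLA-A (blackberry) and BLU-A (blueberry). 4T1 is a mouse mammary tumour cell line of the BALB/c strain. All conditions used the same line, labelled wild type and of mammary gland, and the treated cells received their agent a day after seeding, at one common concentration. The time of harvest is not given in the labels, and each sample carries a batch date of its own, so that date and extract cannot be told apart.

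Both fruits are rich in anthocyanins and other polyphenols, which differ in their sugar and side groups between the fruits. Cells treated with such mixtures can respond through sensors of low oxygen, of oxidants, of misfolded protein in the endoplasmic reticulum and of aryl hydrocarbons, each with a known set of target genes. Proliferating cells in turn express replication, mitosis, ribosome and lipid synthesis genes at a high level. Gene lists for these processes were summarized side by side in the 2 libraries.

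Total counts per column ran from 26955568 to 26957141 in BLA and from 26849069 to 26850347 in BLU. Chi-square per degree of freedom among the 3 columns was 0.0951 in BLA and 0.246 in BLU, below the sampling noise of independent libraries, and the 3 columns were counted as 1 sample. Of 40402 genes in the count table, 17647 reached 1 CPM (counts scaled to a common library size) in 1 or more of the 5 libraries. At near equal depth, 21295 genes had at least 1 count in BLA and 23356 in BLU. All 8 epithelial markers were measured, with Krt8 at 176 CPM in BLA and 197 in BLU and Krt18 at 452 and 458. Of 15 macrophage markers 7 were measured, with a summed level of 22.1 CPM in BLA and 18.2 in BLU. Of these, 5 had the greater level in BLA, such as Cd68 at 8.83 and 6.91 CPM. The other 2, Ptprc (0.184 and 1.13 CPM) and Csf1r (1.03 and 1.82), had the opposite order. Lyz2 was listed at 0 in all 5 libraries, where reads lost in counting cannot be told apart from no expression. Of 8 fibroblast and 5 endothelial markers 3 each were measured. Fibroblast markers summed to 103.7 CPM in BLA and 88.0 in BLU, of which Pdgfra, a growth factor receptor, made 102.3 and 86.1, while Thy1 and Col3a1 were listed at 0 in both libraries. Of the receptors used to class breast tumours, Esr1 was at 35.3 CPM in BLA and 29.3 in BLU, Erbb2 at 29.3 and 21.8, and Pgr at 1.32 and 0.254.

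A gene was counted as higher in one extract when its log2 fold change, taken on CPM plus 0.5, was over 1. By this rule 747 genes (4.23%) were higher in BLA and 1121 genes (6.35%) in BLU. The median over all genes was -0.02 (BLA minus BLU), and 47.6% of genes were above 0. Most of the differences were in genes read at a low level. Of the 2360 genes with a mean under 1 CPM, 309 were higher in BLA and 572 in BLU. Of the 9700 genes with a mean of at least 10 CPM, 28 (0.289%) were higher in BLA and 26 (0.268%) in BLU. At a mean of at least 100 CPM, 3 of 2395 genes were past the threshold, all higher in BLA. They were Pla2g4e, Slpi and Rpph1, the RNA component of ribonuclease P, which was at 1600 CPM in BLA and 790.9 in BLU (1.02, just past the threshold) and is named here for this count after its value was seen. The excess of genes higher in BLU thus lay in genes under 10 CPM, where BLA had fewer genes with any count. The part of library content in it was not tested.

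**Figure D1:**
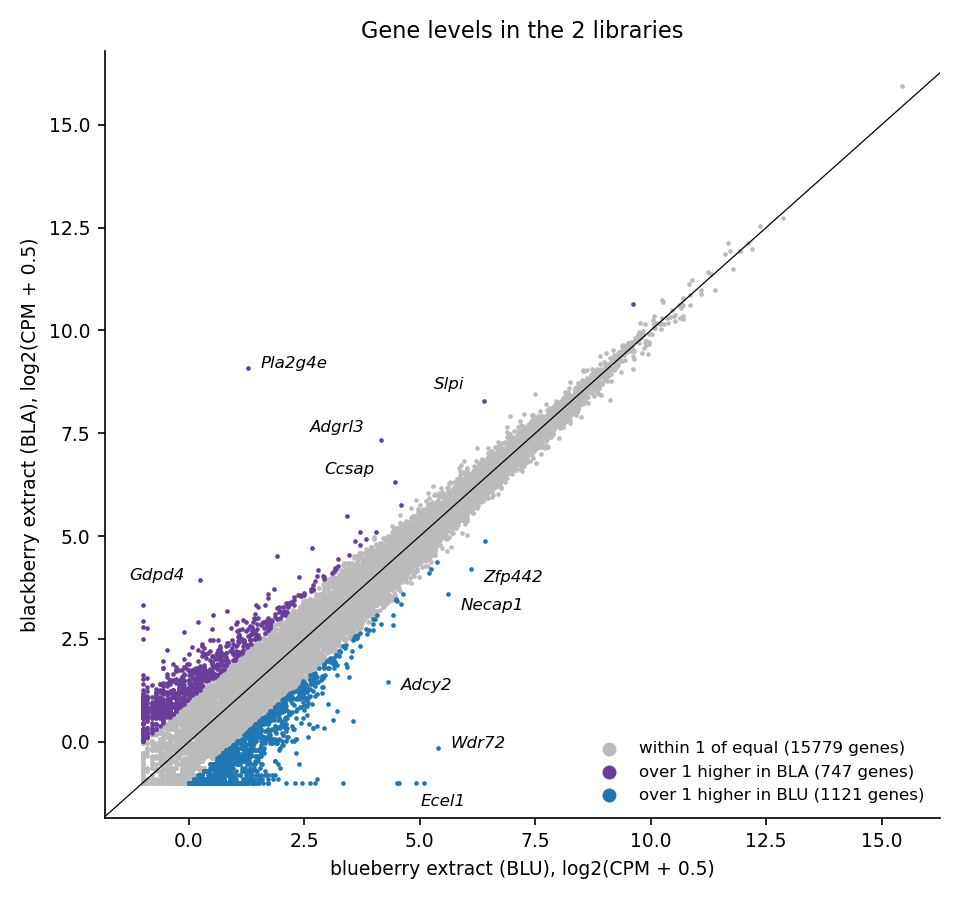
Level of each of 17647 genes in the BLU library (x axis) and the BLA library (y axis), both as log2(CPM + 0.5). Purple points are the 747 genes over 1 higher in BLA, blue points the 1121 genes over 1 higher in BLU, and grey points the rest. The line marks equal levels. Called genes crowd at the low end, and Pla2g4e stands far above the line.

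Several of the genes with the largest differences were high in 1 library of the 5. Pla2g4e, which encodes a cytosolic phospholipase A2 that makes N-acyl phosphatidylethanolamines, had 14803 to 14841 counts in the BLA columns and 51 to 56 in the BLU columns. Its level was 545 CPM in BLA, 1.93 in BLU, 2.86 in untreated cells, 0.951 in BLA-A and 2.23 in BLU-A. It was thus high in BLA alone, with a log2 fold change of 7.81 against BLU and a ratio of 283 (95% exact interval 216 to 378, counting error only). Pla2g4e lies on chromosome 2 from 119996893 to 120076084 (GRCm39, minus strand). Its annotation overlaps Gm13997 on the same strand and Gm74915 on the opposite strand. The nearest genes on each side did not share a difference of this size. Ehd4 was at 258.5 CPM in BLA and 256.9 in BLU, and Pla2g4d, of the same phospholipase family, at 1.03 and 0.545.

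Adhesion receptors and a partner of theirs were among the other genes higher in BLA. Adgrl3, a latrophilin receptor of the adhesion class, was at 161 CPM in BLA against 17.4 in BLU and 17.4 in untreated cells, a ratio of 9.26 (8.43 to 10.2). Tenm3, a teneurin of the family that binds latrophilins, was at 44.3 CPM in BLA and 10.2 in BLU, with untreated cells between them at 24.2. Adgrb3, another adhesion receptor, was at 22.3 and 3.24 CPM, with untreated cells at 8.12. In the nanoparticle libraries these 3 genes had the opposite order, and BLA-A was the lowest of the 5 libraries for each, at 9.38 CPM for Adgrl3, 1.86 for Tenm3 and 0.303 for Adgrb3. All 3 are long genes with several annotated genes inside them, and their counts include intron reads.

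Secreted factors and a Notch ligand followed. Slpi, a secreted inhibitor of leukocyte proteases, was at 309.8 CPM in BLA and 83.6 in BLU, a ratio of 3.71 (3.54 to 3.88). Untreated cells were at 107.5 CPM, so BLA was above and BLU somewhat below them. Its annotation overlaps Matn4 on the same strand. Angpt1, the ligand of the receptor Tie2, was at 25.7 CPM in BLA, 5.89 in BLU and 4.96 in untreated cells. Dll1, a ligand of Notch receptors, was at 15.7 CPM in BLA and 4.72 in BLU, and was also higher in BLA-A (22.0) than in BLU-A (8.28). Ccsap, which encodes a spindle and cilia protein, was at 79.4 CPM in BLA and between 20.2 and 22.9 in the other 4 libraries. The remaining 4 of the 12 genes first in rank were Gdpd4 (ratio 21.6), Acot2 (4.17), Gm34061 (4.12) and Zfr2 (3.89). Acot2 is a mitochondrial acyl-CoA thioesterase.

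Of the 12 genes first in rank in the other direction, 5 were high in BLU and near or at 0 elsewhere. Ecel1, an endothelin-converting enzyme-like protease, had 810 to 832 counts in the BLU columns and 0 in the BLA columns. Its level of 29.9 CPM in BLU was 271-fold that of a floor of 3 counts in the BLA library. The lower limit of its exact interval, which allows for counting error in both libraries, was 220-fold. Cimap1d had 609 to 622 counts in BLU and 0 in BLA, a difference of 203-fold against the same floor. Its neighbour Shc2, 1574 bases away, was at 0.0368 CPM in BLA and 0.109 in BLU, but at 1322 CPM in untreated cells and 0 in both nanoparticle libraries. Wdr72, known for its role in enamel formation, was at 41.4 CPM in BLU and 0.404 in BLA, a ratio of 102 (57.0 to 206). The predicted genes Gm30618 and Gm57791 were at 33.6 and 23.0 CPM in BLU and at 0 in BLA, 304-fold and 209-fold higher against the same floor. The lower limits of the exact intervals were 165-fold for Cimap1d, 247-fold for Gm30618 and 169-fold for Gm57791. Untreated cells had 3.16 CPM of Wdr72 and 4.51 of Gm30618, and under 0.2 CPM of the other 3 genes. The nanoparticle libraries had under 0.4 CPM of each of the 5.

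The other 7 were measured in both libraries. Zfp442, a zinc finger protein, was at 68.5 CPM in BLU, 17.9 in BLA and 10.5 in untreated cells, a ratio of 3.83 (3.47 to 4.24). Necap1, an adaptor-binding protein of clathrin-coated vesicles, was at 48.3, 11.7 and 10.4 CPM in the same order. Adcy2, an adenylyl cyclase, was at 19.4 CPM in BLU, 2.24 in BLA and 2.29 in untreated cells. Entpd6, a nucleotide hydrolase, was at 20.9, 6.66 and 4.70 CPM, and the lncRNA Gm30068 at 11.2, 0.919 and 1.5. In each of these 5 genes BLU was the highest of the 5 libraries, and BLA was nearer to untreated cells than to BLU. Iscu, the scaffold on which iron-sulfur clusters are built, went the other way, with BLU (10.6 CPM) near untreated cells (8.49) and BLA (2.50) below. The RNA-binding protein gene Rbms3 was at 10.3 CPM in BLU, 3.02 in BLA and 15.3 in untreated cells. Among the 24 genes of both directions, 15 overlap another annotated gene, and reads of such genes may not be told apart. Gm34061, Gm30618 and Gm57791 had no known position. Over all measured genes with a known position, 13244 of 16347 overlap another gene.

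**Figure D2:**
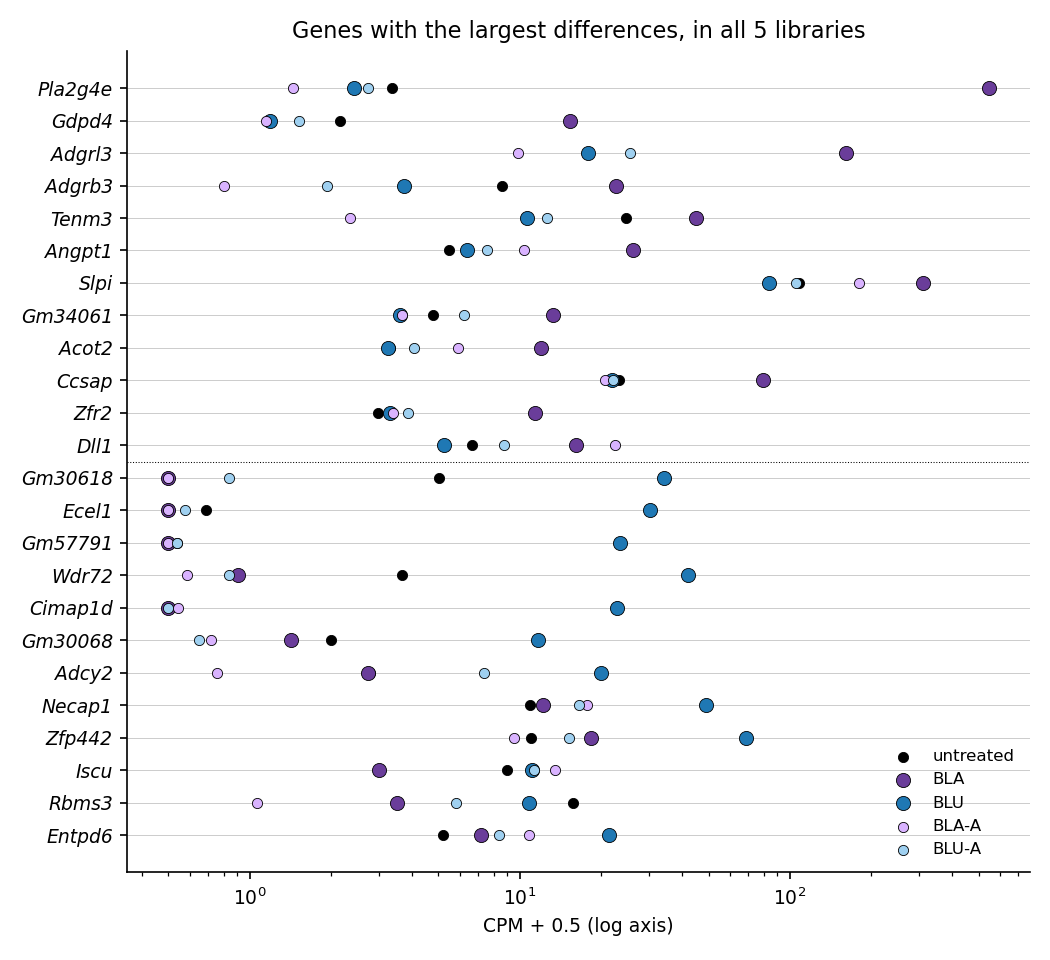
Levels of the 24 genes with the largest differences, as CPM plus 0.5 on a log axis, with 1 point per library. Genes above the dotted line were higher in BLA and genes below it higher in BLU. For Pla2g4e, Adgrl3 and Ccsap the BLA point lies apart from the other 4, and for Ecel1, Wdr72 and Zfp442 the BLU point does.

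A few genes lay on opposite sides of the untreated library. Without a minimum level, 8 genes were over 1 above untreated cells in BLA and over 1 below them in BLU, and 15 genes had the reverse pattern. With at least 5 CPM in the highest of the 3 libraries, 4 and 5 genes were left. The first 4 were Adgrb3, Gm39952, Hrh1 and Ankrd37. Hrh1, the histamine H1 receptor, was at 2.29 CPM in untreated cells, 5.85 in BLA and 0.436 in BLU. Ankrd37, a hypoxia-induced ankyrin repeat protein, was at 2.89, 6.99 and 0.654 CPM. The lncRNA Gm39952 was at 1.35 CPM in untreated cells, 9.56 in BLA and 0 in BLU. Its level in BLA was 87.7-fold that of a floor of 3 counts in the BLU library. The reverse 5 were Gm30618, Wdr72, Zfyve28, Mogat1 and Dock3. Mogat1, which makes diacylglycerol from monoacylglycerol, was at 2.33 CPM in untreated cells, 0.772 in BLA and 6.0 in BLU.

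Genes of the hypoxia response and glycolysis were higher in BLA as a group. When oxygen is low, HIF-1 escapes degradation and switches on glucose transporters, glycolytic enzymes and pH regulators. Of 34 members measured, 31 were above 0 and 3 below, with a median log2 fold change of 0.50 against -0.02 over all genes. The middle 50% of the members ran from 0.30 to 0.66. Past the threshold were 4 of the 34 members, all higher in BLA, where 4.23% of all genes were past it in that direction and 6.35% in the other. Besides Ankrd37 (ratio 10.7, interval 6.58 to 18.4) these were Slc16a3, the lactate exporter MCT4, at 2.72 CPM in BLA and 0.582 in BLU, Car9, a carbonic anhydrase that controls pH outside the cell, at 10.4 and 4.36 CPM, and P4ha2, a collagen prolyl hydroxylase subunit, at 22.7 and 10.5 CPM. Of these, Ankrd37, Slc16a3 and Car9 overlap genes on the opposite strand.

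Several members read at a high level were also higher in BLA, by less. Ndrg1, a stress-responsive gene, was at 349.5 CPM in BLA, 180.5 in BLU and 161.1 in untreated cells (log2 fold change 0.95). Ero1a, the oxidase of protein disulfide bonds, was at 241.7, 123.3 and 113.7 CPM (0.97). Hk2, the hexokinase of tumour cells, was at 183.6, 118.8 and 106.9 CPM (0.63), and Slc2a1, the glucose transporter GLUT1, at 179.6, 123.5 and 91.5 CPM (0.54). In these 4 genes BLU lay between untreated cells and BLA, nearer to untreated cells. Bnip3, a mitophagy receptor, was at 79.1, 50.1 and 41.0 CPM, and Pdk1, a pyruvate dehydrogenase kinase, at 155.1, 102.8 and 108.1 CPM. Vegfa, the vascular growth factor, was at 133.5, 104.7 and 92.9 CPM. Other members read at a high level differed little. Pkm (0.04) and Ldha (0.07), enzymes of lower glycolysis, were above 0. The 3 members below 0 were Tpi1 at 124.8 CPM in BLA and 127.8 in BLU, Eno1 at 730.0 and 772.4, and Hif1a itself, whose regulation is known to act on the protein, at 267.8 and 295.3. Against untreated cells the list had a median of 0.47 in BLA and -0.06 in BLU. Of the 34 members 23 overlap another annotated gene, as do 13244 of the 16347 measured genes with a known position. Aldoa was at 0 in all 5 libraries and was not measured.

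The promoters of the 4 members past the threshold are shown because HIF binds a short core sequence. They run from 250 bases before to 50 after the transcription start (RefSeq, GRCm38.p6), written 5′ to 3′ on the strand of the gene. Capitals mark the core ACGTG or GCGTG on either strand, where neighbouring matches can overlap.
Ankrd37 (chr8:45999801-46000100, minus strand): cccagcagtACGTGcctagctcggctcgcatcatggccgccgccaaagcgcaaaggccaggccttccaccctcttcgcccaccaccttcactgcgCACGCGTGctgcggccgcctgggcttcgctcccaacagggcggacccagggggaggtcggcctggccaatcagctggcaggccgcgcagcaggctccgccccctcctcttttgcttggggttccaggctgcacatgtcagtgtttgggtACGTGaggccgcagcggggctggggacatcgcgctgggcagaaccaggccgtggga
Slc16a3 (chr11:120948817-120949116, plus strand): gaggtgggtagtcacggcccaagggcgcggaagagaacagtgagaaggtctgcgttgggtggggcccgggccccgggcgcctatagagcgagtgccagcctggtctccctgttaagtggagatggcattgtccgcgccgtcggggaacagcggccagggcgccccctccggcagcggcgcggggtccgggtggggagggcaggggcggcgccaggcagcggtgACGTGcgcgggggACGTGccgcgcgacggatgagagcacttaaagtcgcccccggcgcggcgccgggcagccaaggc
Car9 (chr4:43506776-43507075, plus strand): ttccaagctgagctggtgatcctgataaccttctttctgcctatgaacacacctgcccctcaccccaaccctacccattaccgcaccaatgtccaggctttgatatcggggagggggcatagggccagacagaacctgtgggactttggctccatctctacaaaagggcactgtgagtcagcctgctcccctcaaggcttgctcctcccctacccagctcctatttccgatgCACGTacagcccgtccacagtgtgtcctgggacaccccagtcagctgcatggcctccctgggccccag
P4ha2 (chr11:54100674-54100973, plus strand): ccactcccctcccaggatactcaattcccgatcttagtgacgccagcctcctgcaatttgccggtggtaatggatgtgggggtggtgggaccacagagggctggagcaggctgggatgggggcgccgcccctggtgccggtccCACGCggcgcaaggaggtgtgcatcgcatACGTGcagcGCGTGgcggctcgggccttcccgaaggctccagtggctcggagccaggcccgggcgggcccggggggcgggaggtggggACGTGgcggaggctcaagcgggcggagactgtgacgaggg

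The core was found in the promoters of 30 of 32 list members with an entry (93.8%), and in 61.4% of the promoters of the 13323 measured genes with an entry. Members with the core had a median log2 fold change of 0.48. Over all measured genes the median was -0.02 with the core and -0.03 without it. The core is short and common in CpG-rich promoters, and a match is no evidence of binding.

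Endoplasmic reticulum chaperones and their regulators were also higher in BLA. Misfolded protein in this compartment switches on chaperones, foldases and degradation factors through Xbp1, Atf6 and Perk. Of 19 members measured, 18 were above 0, with a median of 0.32. Sdf2l1, a chaperone cofactor, was past the threshold at 4.04 CPM in BLA and 1.09 in BLU (ratio 3.71, 2.46 to 5.76). Xbp1 was at 73.9 CPM in BLA and 38.7 in BLU, and the co-chaperones Dnajb9 and Dnajc3 were at 31.6 against 19.4 and at 98.3 against 64.7 CPM. Hspa5, the main chaperone of the compartment, was at 2399 CPM in BLA, 1914 in BLU and 2485 in untreated cells. The list median against untreated cells was 0.03 in BLA and -0.36 in BLU. By the median, the difference between the extracts thus lay on the side of a lower level in BLU, but not in each member. Dnajb9 was at 18.0 CPM in untreated cells, near BLU and below BLA. Dnajc3 was at 76.5 CPM in untreated cells, between the extracts.

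The endoplasmic reticulum stress element was found in 6 of 16 promoters of this list (37.5%) and in 0.165% of all promoters with an entry. It was searched on both strands as CCAAT and CCACG with 9 bases of any kind between them. It is shown in capitals in the members with a match that differed most, Dnajc3 (log2 fold change 0.60) and Pdia6, a disulfide isomerase (0.55).
Dnajc3 (chr14:118937682-118937981, plus strand): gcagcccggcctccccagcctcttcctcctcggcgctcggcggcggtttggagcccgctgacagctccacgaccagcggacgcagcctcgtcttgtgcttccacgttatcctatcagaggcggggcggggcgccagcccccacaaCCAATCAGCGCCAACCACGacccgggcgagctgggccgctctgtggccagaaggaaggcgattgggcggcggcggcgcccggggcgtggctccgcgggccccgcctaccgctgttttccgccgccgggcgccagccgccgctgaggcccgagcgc
Pdia6 (chr12:17266339-17266638, plus strand): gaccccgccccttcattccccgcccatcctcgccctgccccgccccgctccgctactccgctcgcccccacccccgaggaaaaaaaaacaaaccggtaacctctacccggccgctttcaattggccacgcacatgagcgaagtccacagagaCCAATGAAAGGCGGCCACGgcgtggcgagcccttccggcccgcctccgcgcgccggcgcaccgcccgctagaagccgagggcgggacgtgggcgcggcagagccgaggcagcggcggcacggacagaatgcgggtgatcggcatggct
Members with the element had a median of 0.35 and members without it 0.27.

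The integrated stress response, in which Atf4 raises amino acid and redox genes, had a median of 0.20 over 22 measured members, 18 of them above 0. Atf5, a transcription factor of this response, was at 17.8 CPM in BLA and 8.65 in BLU (1.00) and was the only member past the threshold. It fell short of it with total-count scaling (0.98), with a pseudocount of 1 CPM (0.96) and without replicate 1 (0.96). Trib3 was at 31.2 and 15.7 CPM, Ppp1r15a, which ends the response, at 19.8 and 10.3 CPM, and Slc7a11, the cystine importer, at 106.4 and 59.0 CPM. Serine and one-carbon enzymes of the same list were lower in BLA, Phgdh at -0.42, Psat1 at -0.37 and Shmt2 at -0.33. Atf4 itself was at 256.4 CPM in BLA and 236.0 in BLU.

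Oxidant and aryl hydrocarbon targets differed gene by gene. No member of either list was past the threshold. Gclc, the first enzyme of glutathione synthesis, was at 58.5 CPM in BLA and 29.9 in BLU, and Hmox1, heme oxygenase, at 7.54 and 3.92 CPM. Osgin1 was at 38.5 and 25.0 CPM. Nqo1, a target of both pathways, was at 9.96 and 10.2 CPM and so did not separate the extracts. The antioxidant enzymes Gpx4 (-0.47), Prdx1 (-0.32) and Sod2 (-0.32) were lower in BLA, and the 28 members of the antioxidant list had a median of 0.10. Of the aryl hydrocarbon targets, Aldh3a1, an aldehyde dehydrogenase, was at 45.4 CPM in BLA, 23.4 in BLU and 28.2 in untreated cells. Cyp1b1 was at 64.8, 39.5 and 48.1 CPM in the same order. Cyp1a1, the classical target, was listed at 0 in both libraries, where reads lost in counting cannot be told apart from no expression. Tiparp was at 176 and 160 CPM. Slc40a1, the iron exporter ferroportin, was past the threshold at 7.13 CPM in BLA and 2.98 in BLU.

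Early response genes leaned towards BLA, with 23 of 27 measured members above 0 and a median of 0.11. The count of members above 0 was 19 when libraries were scaled by total counts alone. Fos was at 23.6 CPM in BLA and 12.6 in BLU, Fosb at 71.8 and 43.8, and Atf3, a stress-induced factor, at 100.9 and 64.5. Jun (280 and 259 CPM), Junb (81.5 and 81.4) and Egr1 (188 and 170) differed little.

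**Figure D3:**
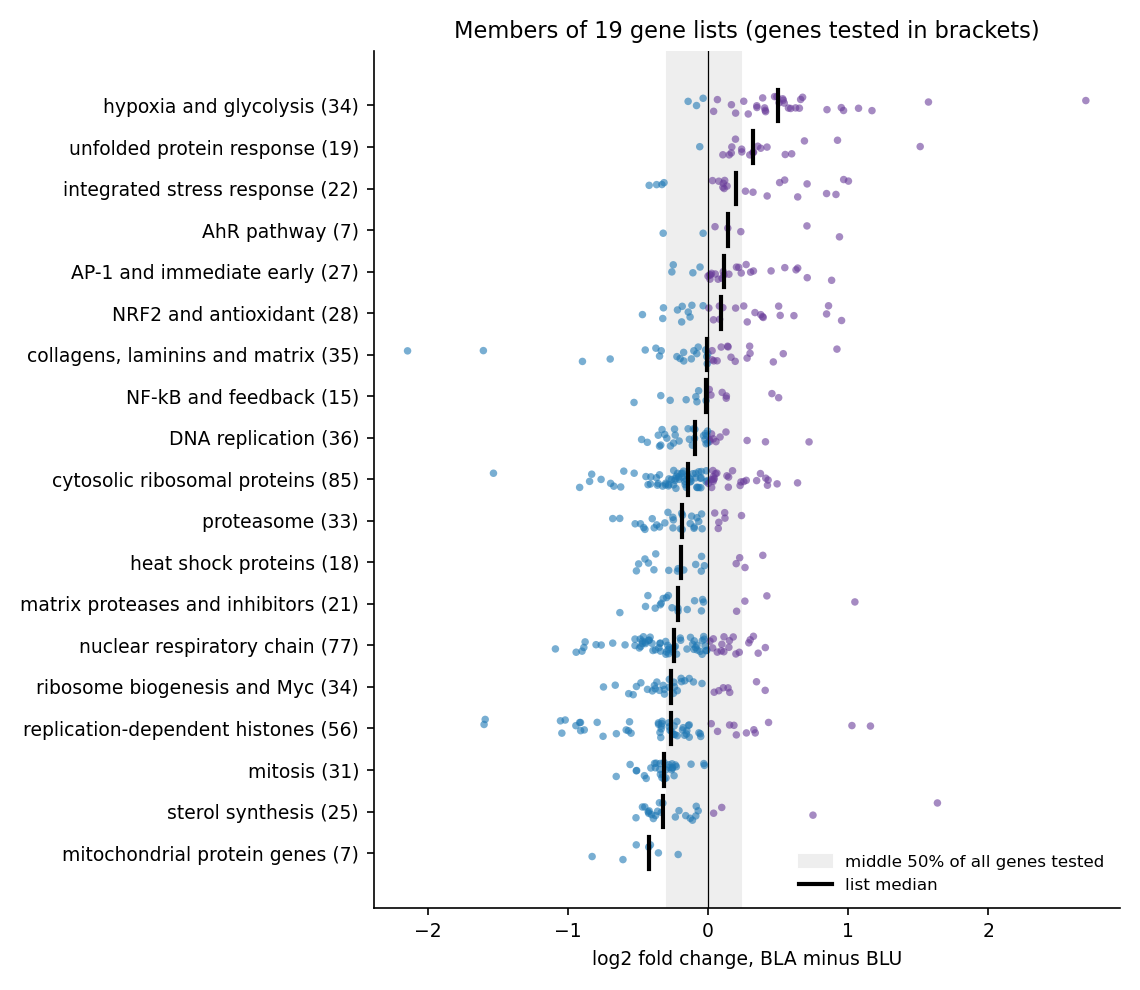
Log2 fold change (BLA minus BLU, x axis) of each measured member of 19 gene lists, ordered by list median. Points are genes, purple above 0 and blue below, black bars are list medians, and the grey band is the middle 50% of all genes (-0.29 to 0.23). Hypoxia genes lie to the right of 0 with 3 exceptions and all mitosis genes lie to its left.

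Mitosis genes were lower in BLA without exception but by small amounts. All 31 measured members were below 0, with a median of -0.31 and a range of log2 fold changes from -0.65 to -0.03, and none was past the threshold. With DESeq2 size factors 30 of 31 were below 0. Kif2c, which depolymerizes microtubules at centromeres, was at 40.8 CPM in BLA, 64.4 in BLU and 68.1 in untreated cells. Prc1, which bundles microtubules of the central spindle, was at 142.0, 208.8 and 208.2 CPM. Aurkb, a kinase of the chromosomal passenger complex, was at 45.1, 64.5 and 63.6 CPM. In these 3 genes BLU was at the untreated level and BLA below it. Plk1, a mitotic kinase, had values of 60.5, 82.2 and 119.1 CPM, and Mki67, the proliferation marker, 1578, 1844 and 2147 CPM. The list median against untreated cells was -0.49 in BLA and -0.12 in BLU. Fewer dividing cells and less RNA of these genes per cell cannot be told apart in bulk libraries.

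Replication genes differed less, with 26 of 36 members below 0 and a median of -0.09. With DESeq2 size factors 20 were below 0 and 16 above, and the median was -0.07. Pcna, the sliding clamp, was at 91.0 CPM in BLA and 127 in BLU, and Mcm3, a helicase subunit, at 144 and 195 CPM. Of the members above 0, Ccne1, the G1 cyclin, was at 6.14 CPM in BLA and 3.53 in BLU, and Gins2, a helicase cofactor, at 17.3 and 12.9. Replication-dependent histone genes had a median of -0.26 over 56 members. Of these, 5 were past the threshold towards BLU and 2 towards BLA, H2bc7 and H3c15, shares near those over all genes (6.35% and 4.23%). Histone genes have near-identical copies, so single members are uncertain.

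The cell cycle homology region, TTTGAA on either strand, was found in the promoters of 21 of 26 mitosis genes with an entry (80.8%) and in 16.1% of all promoters with an entry. It is shown in capitals in Kif2c (log2 fold change -0.65) and Prc1 (-0.55), the members with the largest differences.
Kif2c (chr4:117178723-117179022, minus strand): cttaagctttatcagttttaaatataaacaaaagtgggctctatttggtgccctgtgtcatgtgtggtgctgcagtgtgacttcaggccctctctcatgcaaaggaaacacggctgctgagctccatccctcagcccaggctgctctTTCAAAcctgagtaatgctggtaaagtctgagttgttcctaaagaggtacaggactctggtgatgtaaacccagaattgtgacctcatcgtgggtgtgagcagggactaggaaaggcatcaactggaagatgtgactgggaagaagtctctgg
Prc1 (chr7:80294201-80294500, plus strand): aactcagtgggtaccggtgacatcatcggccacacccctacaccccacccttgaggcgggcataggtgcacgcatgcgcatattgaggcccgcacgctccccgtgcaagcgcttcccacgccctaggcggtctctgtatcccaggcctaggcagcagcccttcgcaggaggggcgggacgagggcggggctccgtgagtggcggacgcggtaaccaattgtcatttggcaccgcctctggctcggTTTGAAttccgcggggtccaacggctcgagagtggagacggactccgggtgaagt
Mitosis genes with the letters had a median of -0.33 and those without them -0.30. All measured genes with the letters had a median of -0.06.

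Sterol synthesis genes were lower in BLA, with 21 of 25 members below 0 and a median of -0.32. The pathway is driven by Srebf2, which was at 154 CPM in BLA and 150 in BLU. Hmgcs1, the entry enzyme, was at 126 CPM in BLA, 172 in BLU and 215 in untreated cells. Cyp51, which removes a methyl group from lanosterol, was at 144, 199 and 239 CPM. Of these 3 libraries, untreated cells were thus highest and BLA lowest for both enzymes. Mvd, a decarboxylase of the mevalonate pathway, ran against the list at 8.90, 5.09 and 8.46 CPM. The letters TCACNCCAC of the sterol element were in 1 of 17 promoters of the list (5.88%) and in 1.45% of all promoters with an entry. Fatty acid synthesis genes had a median of -0.12, with Elovl6, an elongase, at 245 and 333 CPM and Fasn, the synthase, at 434 and 560 CPM.

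Genes of energy production and protein turnover were lower in BLA. The 7 measured protein genes of the mitochondrial genome were all lower in BLA, with a median of -0.42. ND6, the gene on the light strand, was at 315 CPM in BLA and 558 in BLU, ND4 at 237 and 361, and COX1 at 4060 and 4703. The other 6 protein genes of this genome were listed at 0 in both libraries, where reads lost in counting cannot be told apart from no expression. The summed level of the 7 was 9092 CPM in BLA, 11630 in BLU and 15000 in untreated cells. Nuclear genes of the respiratory chain had a median of -0.24, with 59 of 77 members below 0. Only Ndufb2, a subunit of complex I, was past the threshold, at 3.05 CPM in BLA and 7.05 in BLU. Ribosome biogenesis genes had a median of -0.26 (27 of 34 below 0) and proteasome genes of -0.19 (27 of 33). Cytosolic ribosomal proteins had a median of -0.14, with 60 of 85 below 0, and 1 past the threshold, Rpl13, at 28.9 CPM in BLA and 84.3 in BLU. Rpl13 overlaps Mir7079 and Snord68 on the same strand, and their reads may not be told apart. Heat shock proteins had a median of -0.19, with the mitochondrial chaperonin pair Hspd1 (-0.42) and Hspe1 (-0.49) lower in BLA.

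Gene length went with the differences, in opposite directions at high and low levels. Among genes with at least 10 CPM the median log2 fold change was -0.14 for genes under 3 kb (231 genes) and -0.07 from 3 to 10 kb. It was 0.07 for genes over 300 kb (253 genes). The median gene length was 0.553 kb for the histone list, 4.05 kb for ribosomal proteins and 9.15 kb for the nuclear respiratory chain, against 27.2 kb over all genes. It was 30.8 kb for mitosis genes and 28.4 kb for hypoxia genes, and in genes of 10 to 30 kb and of 30 to 100 kb the medians were -0.03 and -0.01. The part of gene length in the differences of the short lists was not tested. Under 10 CPM the order was the reverse, and the 335 genes over 300 kb had a median of -0.59, with 104 past the threshold towards BLU and 14 towards BLA.

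**Figure D4:**
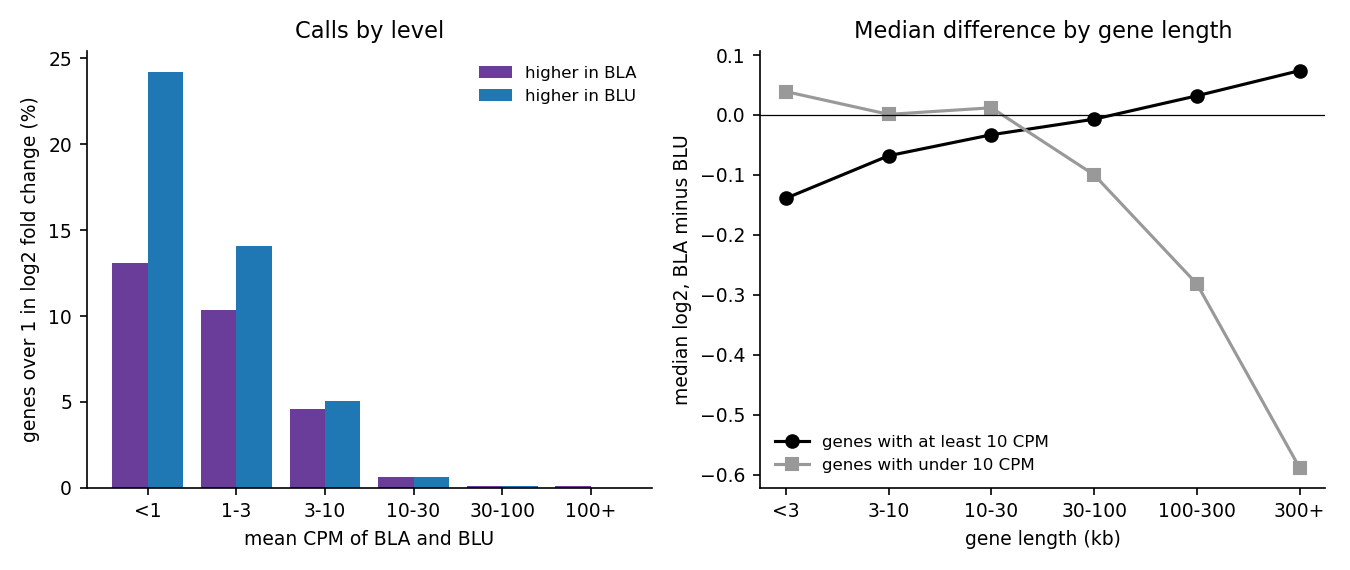
Left, share of genes over 1 in log2 fold change (%, y axis) by mean CPM of both libraries, purple for higher in BLA and blue for higher in BLU. Right, median log2 fold change (BLA minus BLU) by gene length in kb, black for genes with at least 10 CPM and grey for genes under 10 CPM. Calls are rare from 10 CPM upward, and the medians of long genes have opposite signs at high and low levels.

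Of 25 members of the very long gene list 18 were below 0, and 4 were past the threshold, all towards BLU. Among all 588 genes over 300 kb 107 were past it towards BLU and 17 towards BLA, so the list's count was near that of genes of such length. They were Dpyd (0.0735 CPM in BLA, 2.80 in BLU), Magi2 (7.98 and 21.1), Csmd1 (4.12 and 11.2) and Pard3b (2.94 and 7.6). Wwox, which spans a common fragile site, was higher in both extracts than in untreated cells, at 362 CPM in BLA, 284 in BLU and 107 in untreated cells. Nuclear long noncoding RNAs read at a high level differed in direction. Gm26917 took 6.4% of all counts in BLA and 4.55% in BLU. It had no known position in the annotation used, and the origin of its reads was not tested. Neat1, the scaffold of paraspeckles, was at 668 and 476 CPM, while Kcnq1ot1, which silences an imprinted cluster, was lower in BLA at 168.7 and 201.2 CPM.

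Lists of immune, matrix and lineage genes were close to the median of all genes. Interferon-stimulated genes had a median of 0.10 over 33 members. In that list the antiviral synthetase-like genes Oasl2 (19.3 CPM in BLA, 9.67 in BLU) and Oasl1 (14.2 and 7.23) were higher in BLA, while Isg15 was past the threshold the other way at 0.699 and 2.18 CPM. Cytokines and chemokines had a median of 0.07. Cxcl3 was their only member past the threshold, at 1.21 CPM in BLA and 0.036 in BLU. Csf3, the granulocyte factor for which 4T1 tumours are known, was at 53.8 CPM in BLA and 44.6 in BLU, Ptgs2, the inducible cyclooxygenase, at 513 and 376, and Ccl2, the monocyte chemokine, at 2.50 and 5.42. Matrix proteases and inhibitors were slightly lower in BLA with a median of -0.21, among them Timp1 (15.2 and 23.8 CPM) and Mmp9 (144 and 182 CPM). The 1 member past the threshold, Adamts5, which cleaves aggrecan, was higher in BLA at 1.29 CPM against 0.364. Collagens, laminins and matrix genes (-0.01), integrins (0.00), NF-kB and feedback genes (-0.01), YAP targets (-0.01) and caspases (-0.03) had medians within 0.03 of 0. Of 35 matrix genes 2 were past the threshold, both towards BLU, where 6.35% of all genes were past it. They were Postn (1.71 CPM in BLU) and Tgfbi (1.02), both at 0 in BLA. In the EMT list, Zeb1, a repressor of epithelial genes, was at 2.02 and 4.36 CPM, and Cdh1, the epithelial cadherin, at 124 and 135. Ovol2, the only member of that list past the threshold, was higher in BLA at 1.10 CPM against 0.291. The p53 target list had a median of 0.07, with Cdkn1a at 20.4 and 22.3 CPM. Of death regulators, Bcl2l11 (Bim) was at 239 CPM in BLA and 179 in BLU, and Bax at 6.43 and 6.98.

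The nanoparticle libraries give the same fruit comparison without sharing a library with it. There 1532 genes (8.68%) were higher in BLA-A and 1850 (10.5%) in BLU-A, so the spread was wider than between the plain extracts. Across the 9700 genes with at least 10 CPM, the correlation between the 2 fruit differences was 0.01 (Pearson) and 0.01 (Spearman), and 50.5% of genes had the same sign. Genes are not independent replicates, and this is a description of 4 libraries. Hypoxia genes were higher with blackberry in both forms, with a median of 0.92 in BLA-A minus BLU-A, and so were genes of the unfolded protein response (0.90) and of the integrated stress response (0.31). Lists that differed little between the plain extracts were also above 0 there, such as cytokines and chemokines (1.19) and integrins (0.68), while very long genes were at -1.18. By gene length, the nanoparticle medians ran from 0.195 under 3 kb to -0.83 over 300 kb. The part of gene length in these list medians was not tested. Car9 was at 14.4 CPM in BLA-A and 3.40 in BLU-A, and P4ha2 at 45.3 and 12.3 CPM. Slc16a3 had the opposite order, with 0.907 and 1.70 CPM. Mitosis genes had a median of -0.10 in the nanoparticle pair, with members on both sides of 0, such as Kif2c at -0.03, Ndc80 at -1.38 and Ccna2 at 0.90. Sterol synthesis genes (0.65) and the mitochondrial protein genes (1.04) were higher in BLA-A, the opposite of BLA against BLU. Pla2g4e was at -0.91 in the nanoparticle pair. The 5 genes that were high in BLU and near 0 in BLA had too few counts in both nanoparticle libraries to be compared there.

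**Figure D5:**
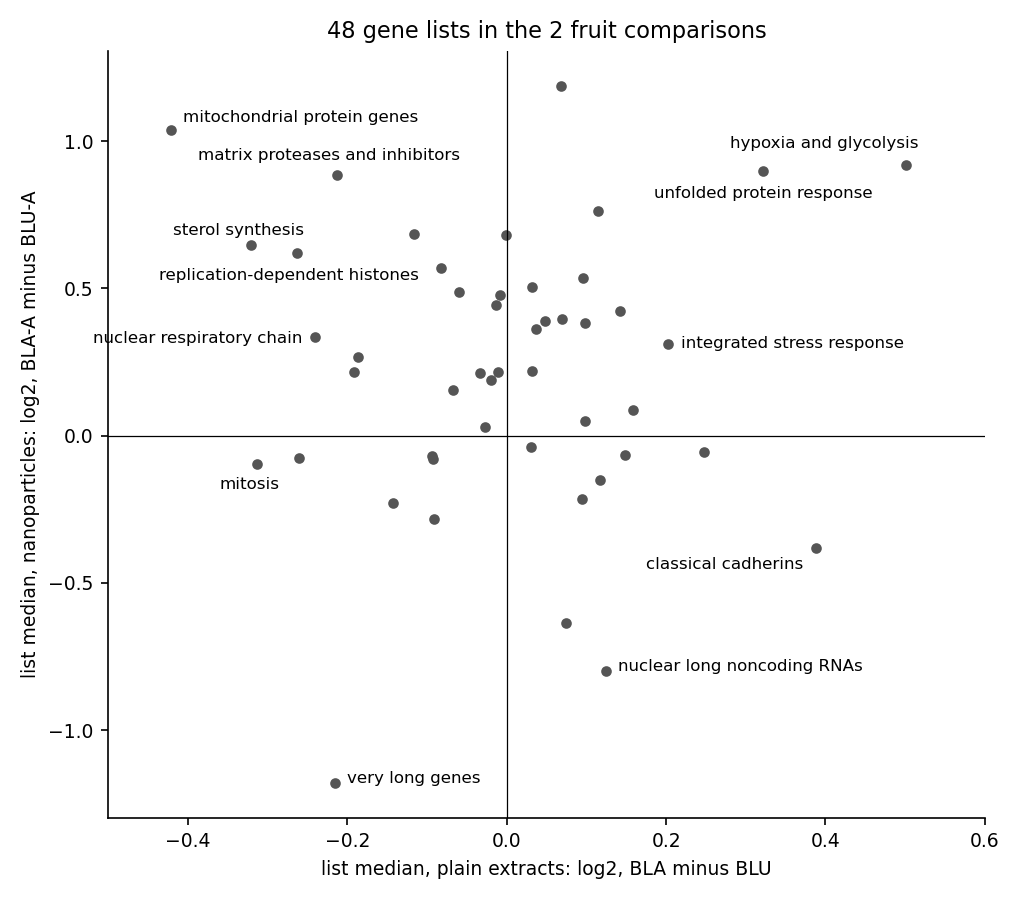
Median log2 fold change of 48 gene lists between the plain extracts (BLA minus BLU, x axis) and between the nanoparticles (BLA-A minus BLU-A, y axis). Each point is a list, with lists far from 0 named. Hypoxia and unfolded protein response genes are above 0 on both axes, while sterol and mitochondrial genes are below 0 on the x axis and above it on the y axis.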

How the data were processed

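The authors' table holds raw counts, as deposited, of 40402 genes in 15 columns. Per the study's methods, read pairs were merged and aligned as single-end reads with STAR to GRCm39, and counted on whole genes, introns included, in OmicsBox. Antisense and overlapping genes may therefore share or lose reads. The submitters' processing notes name DESeq2 1.36.0. The deposited tables of fold changes and gene set enrichment hold the authors' own comparisons and were not used. The 3 columns of a condition, subsets of 1 library, were averaged and rounded. Genes reaching 1 CPM in any of the 5 libraries (17647) were kept. Libraries were scaled by TMM factors (edgeR 4.0.16), with 0.5 CPM added before log2 differences were formed. No test was run. Intervals are exact (Clopper-Pearson, 95%) on the ratio of 2 counts without pseudocount and cover counting error only. They leave out variation between repeat libraries and are thus too narrow. Whether the mates of a pair were counted as separate reads, which would narrow them further, could not be checked. The floor was 3 counts per library, 0.11 CPM in BLA. Positions came from GENCODE M39 (16347 genes matched by symbol) and promoters from RefSeq on GRCm38.p6.

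Named genes were the 12 largest differences per direction with at least 10 CPM in the higher library, up to 4 members per direction of each of 48 lists with at least 1 CPM there, members that define a list, and up to 5 genes per direction on opposite sides of untreated cells. Outside this rule, and chosen after their values were seen, are Rpph1, the genes flanking a named gene (Ehd4, Pla2g4d, Shc2), the receptors Esr1 and Pgr, and list members given as examples (Atf4, Atf6, Bnip3, Ccna2, COX1, Egr1, Ero1a, H3c15, Hk2, Hspa5, Jun, Junb, Krt18, Ldha, Mki67, Ndc80, Ndrg1, Pdia6, Pdk1, Pkm, Plk1, Slc2a1, Vegfa). Values of some single list members are not reported here. The members and lists were chosen with earlier results of these data known. Marker lists covered epithelial cells, macrophages, fibroblasts and endothelium. Alternatives covered scaling (DESeq2 1.42.0 size factors among them), filter, pseudocount and columns. Steps were tested on simulated data. R 4.3.3, Python 3.11.15, numpy 2.4.6, pandas 2.3.3 and scipy 1.17.1 were used.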

Additional observations from a re-analysis of the deposited data

Results flagged for a closer look

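With the settings used in the report, each result here had one direction between the plain extracts and the opposite one between the nanoparticles. The difference between the pairs was not tested, since each condition has 1 library. Adgrl3 had a log2 fold change of 3.18 in BLA minus BLU and of -1.37 in BLA-A minus BLU-A. Adgrb3 was at 2.61 and -1.27, and Tenm3 at 2.07 and -2.42. Among gene lists, the median of sterol synthesis was -0.32 and 0.65, that of replication-dependent histones -0.26 and 0.62, that of the nuclear respiratory chain -0.24 and 0.34, and that of the mitochondrial protein genes -0.42 and 1.04. Matrix proteases and inhibitors were at -0.21 and 0.89. Classical cadherins were at 0.39 and -0.38, in a list of 15 genes whose median level was 1.34 CPM, and their median between the plain extracts turned to -0.054 with at least 1 CPM in both libraries. The spread across genes was wider in the nanoparticle pair, in which 8.68% and 10.5% of genes passed the threshold.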

How the results depend on the processing

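The 747 genes higher in BLA and 1121 higher in BLU depended on the treatment of low counts. They became 221 and 241 with at least 1 CPM in both libraries, 1137 and 1798 with no filter beyond 1 count, and 434 and 609 with a pseudocount of 1 CPM. With a mean of at least 10 CPM, an alternative chosen after seeing the data, they were 28 and 26. Without replicate 1, 2 or 3 they ranged from 741 to 765 and from 1115 to 1135. The median of classical cadherins turned from 0.39 to -0.054 with at least 1 CPM in both libraries, and that of fibroblast markers from 0.25 to -0.239 with no filter beyond 1 count; the cause was not tested. No log2 fold change of a named gene over 1 in size changed sign under the 12 alternatives, where it could be computed. Genes past the threshold that fell short of it with a pseudocount of 1 CPM included H2bc7 (0.90), Isg15 (-0.91) and Ndufb2 (-0.99). Adamts5 (1.29 CPM in BLA, 0.364 in BLU) and Ovol2 (1.10 and 0.291) also fell short of the threshold with that pseudocount. No paired analysis was possible because the comparison comes from no test and the numbered columns are read subsets of 1 library. Genes under 10 CPM and single-library levels limit what can be read from the counts.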
